A study of Homo sapiens with 3 samples.

Results

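SNORD102 (U102) and SNORA27 (ACA27) are small nucleolar RNAs (snoRNAs) encoded in neighbouring introns of RPL21, and they were 2 of the 260 snoRNA entries with reads in small RNA libraries of HEK293 cells. They were taken by their entry names in the deposited lists of box C/D and box H/ACA reads, and together they held 939 of 51039 snoRNA reads. The study sequenced 3 libraries that form 1 group: HEK293, an established human embryonic kidney cell line, grown in DMEM with foetal bovine serum and antibiotics, with no treatment or genetic change named in the labels. RNA was isolated by phenol and chloroform extraction, enriched for small RNA on magnetic beads and turned into libraries with an Ion Total RNA-Seq kit. The title of the series concerns the box C/D snoRNA U3 as a source of miRNAs, so reads of miRNA size, here 20 to 24 nt, were examined in both snoRNAs. With 1 group, every comparison was made within the libraries and between RNAs or parts of an RNA.

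Box C/D snoRNAs carry the short C and D boxes near their ends and guide 2′-O-methylation, whereas box H/ACA snoRNAs fold into hairpins followed by an H box and an ACA box and guide pseudouridylation. Most human snoRNAs of both kinds are cut from introns of a host gene, and genes of ribosomal proteins are frequent hosts. RPL21 encodes a protein of the large ribosomal subunit, and SNORD102 and SNORA27 are known as guides for the rRNA of the same subunit.

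RPL21 lies on chromosome 13 at chr13:27251309-27256691 (plus strand, GRCh38, GENCODE 29), and exons are numbered here along a coding transcript of 6 exons. SNORD102 (ENSG00000207500.1, 72 nt) lies at chr13:27255064-27255135 on the plus strand, in the intron between exons 3 and 4, which is 960 nt long. It starts 782 nt after exon 3 and ends 106 nt before exon 4. SNORA27 (ENSG00000207051.1, 126 nt) lies at chr13:27255401-27255526 on the plus strand, in the next intron, between exons 4 and 5, which is 829 nt long. It starts 46 nt after exon 4 and ends 657 nt before exon 5, and 265 nt separate the snoRNAs. Each also lies inside 1 exon of an RPL21 transcript annotated as a retained intron, and outside the exons of all coding RPL21 transcripts.

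The whole sequences are shown because the places of read ends are given relative to the boxes and to a run of 1 base. They are written 5′ to 3′ as DNA from GENCODE 29 transcripts, with the C box letters (TGATGA) and D box letters (CTGA) of SNORD102 in capitals, and in SNORA27 the letters AAAGGA, a match to the H box pattern ANANNA, and the ACA near the 3′ end.
SNORD102: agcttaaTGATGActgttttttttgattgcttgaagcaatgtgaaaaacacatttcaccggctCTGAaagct
SNORA27: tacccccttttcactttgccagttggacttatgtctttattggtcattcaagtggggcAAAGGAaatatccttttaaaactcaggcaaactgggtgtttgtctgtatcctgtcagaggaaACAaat

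Positions are counted from 1 at the 5′ end of each snoRNA. In SNORD102 the C box letters fell at 8 to 13 and the D box letters at 64 to 67, on the given strand only, and 65.3% (C box) and 99.2% (D box) of the 121 sequences available for this class held these letters anywhere. The first and last 5 bases of SNORD102 were complementary. A run of 8 T stood at 17 to 24, downstream of the C box. Runs of at least 8 equal bases occurred in 2 of the 121 box C/D snoRNAs (1.65%), SNORD102 and SNORD116-10, the latter looked up after its value was seen. In SNORA27 the H box match in capitals lay at 59 to 64, near the middle of the RNA, and the ACA at 121 to 123, 3 nt before the end. The pattern ANANNA is loose: it matched at 3 places in SNORA27, those at 114 and 119 overlapping the 3′ end region, and 98.9% of 88 box H/ACA sequences held it somewhere. An ACA exactly 3 nt before the end was found in 76.1% of the 88. GC content was 36.1% in SNORD102 and 40.5% in SNORA27.

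Of the reads of 20 to 24 nt, the commonest at the 5′ end of SNORD102 and the 2 commonest at the 3′ end of each snoRNA are shown, with bases 2 to 8, the seed of a miRNA of that sequence, in capitals.
SNORD102, positions 2 to 24, chr13:27255065-27255087: gCTTAATGatgactgtttttttt
SNORD102, positions 53 to 72, chr13:27255116-27255135: tTTCACCGgctctgaaagct
SNORD102, positions 51 to 72, chr13:27255114-27255135: cATTTCACcggctctgaaagct
SNORA27, positions 103 to 126, chr13:27255503-27255526: tGTATCCTgtcagaggaaacaaat
SNORA27, positions 107 to 126, chr13:27255507-27255526: tCCTGTCAgaggaaacaaat

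All 5 lie on the plus strand of GRCh38. None of the 2370 human mature miRNAs in the RefSeq table shared a seed with any of these 5 fragments, contained one or was contained in one, and 0 hairpins of that table lay within RPL21. Among 206694 GENCODE transcripts each fragment matched exactly only its own snoRNA and the RPL21 transcript that overlaps it. Near copies with mismatches were not searched.

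The libraries held 19989, 11958 and 19092 snoRNA reads. They are numbered in the order of deposition, and the labels do not say whether they came from separate cultures, so p-values measure only how far these libraries spread, and that spread may be technical. Library 2 held shorter reads than the others, with 27.3% of its snoRNA reads at up to 40 nt, where library 1 had 11.9% and library 3 had 12.1%. Reads of 20 to 24 nt were 2.66%, 6.50% and 3.09% of libraries 1, 2 and 3. No pair of libraries agreed within sampling noise (chi-square per degree of freedom 10.5 to 13.3). Reads carry no molecular identifiers, so the 95% intervals given for single libraries (exact Clopper-Pearson) cover counting error only.

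SNORD102 took nearly the same share of snoRNA reads in each library. It had 284 reads in library 1, or 1.42% of that library (interval 1.26% to 1.59%), 159 reads or 1.33% in library 2 (1.13% to 1.55%), and 244 reads or 1.28% in library 3 (1.12% to 1.45%). The 3 intervals overlapped, and the highest share was 1.11 times the lowest. The mean was 1.34% ± 0.072 (SD, n = 3), rank 19 of 147 box C/D entries, whose median was 0.332%. Within libraries 1, 2 and 3 its rank was 21, 20 and 24. The share was 0.488% ± 0.088 without reads whose length differed from their span. With each deposited record counted once in place of its reads it was 2.07% ± 0.58 (SD, n = 3 each). Its coefficient of variation between libraries was 5.38%, the fourth lowest in its class among the 108 snoRNAs that reached 10 reads in every library, whose median was 27.6%. Scaled with TMM factors in place of library totals, the levels were 1.49%, 1.40% and 1.16% in libraries 1 to 3, a wider spread. DESeq2 size factors gave 1.53%, 1.41% and 1.11%, so the evenness held for library totals only.

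SNORA27 was less even. It had 116 reads in library 1, or 0.580% (interval 0.480% to 0.696%), 34 reads or 0.284% in library 2 (0.197% to 0.397%), and 102 reads or 0.534% in library 3 (0.436% to 0.648%). Library 2 stood below the other two, with an interval that did not overlap theirs, and the highest share was 2.04 times the lowest. The mean was 0.466% ± 0.16 (SD, n = 3), rank 2 of 92 box H/ACA entries, whose median was 0.0349%. No single library placed it that high: its rank was 3, 4 and 4 in libraries 1, 2 and 3. The share was 0.949% with each deposited record counted once. The coefficient of variation of 34.2% was the sixth lowest of 15 box H/ACA snoRNAs with at least 10 reads in every library (median 49.4%). No read of either snoRNA lay on the opposite strand. In the second deposited table of counts, library 1 was listed with the same 284 and 116 counts.

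Among their neighbours in the order of levels, neither snoRNA stood clear of the spread. Above SNORD102 came SNORD63 (1.44% ± 0.19) and SNORD45C (1.35% ± 0.74), and below it SNORD46 (1.27% ± 0.60) and SNORD16 (1.26% ± 0.44; SD, n = 3 each). SNORD102 was higher than these 4 in 1 or 2 of 3 libraries each, so their order was not fixed by the libraries. Above SNORA27 came SNORA80E with 0.681% ± 0.34, and below it SNORA7A (0.453% ± 0.29) and SNORA73B (0.364% ± 0.26). SNORA27 was higher than SNORA7A in 1 of 3 libraries and higher than SNORA73B in 2 of 3. SNORA80E exceeded SNORA27 in 3 of 3 libraries, by 188 to 116, 36 to 34 and 153 to 102 reads. A two-sided exact sign-flip test, which permutes the signs of the differences in share, gave p = 0.25, the smallest value that 3 libraries allow.

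**Figure D1:**
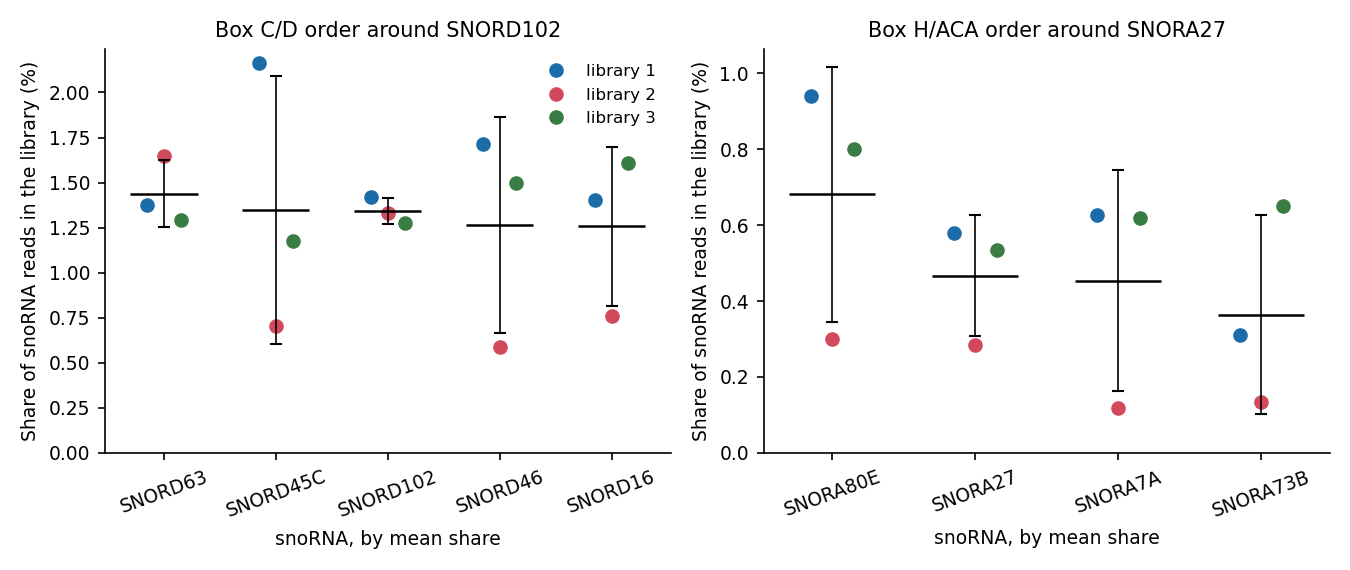
Share of all snoRNA reads in each library (%, linear axis) for SNORD102 and the box C/D snoRNAs next to it in rank, and for SNORA27 and its box H/ACA neighbours. Points are the 3 libraries, horizontal lines the mean and bars the SD, with SNORD102 between 1.28% and 1.42% in every library and SNORA27 lowest in library 2.

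SNORD102 gave more reads than SNORA27 in 3 of 3 libraries. The ratio was 2.45 in library 1, 4.68 in library 2 and 2.39 in library 3, a mean of 1.59 ± 0.55 on the log2 scale (SD) or 3.01-fold. Per nucleotide of annotated length, a scale added after seeing the data, the ratios were 4.28, 8.18 and 4.19, or 5.28-fold. Where a read covers a whole RNA, as most SNORD102 reads nearly did, reads do not grow with length, and the per-length ratio is then the larger of the pair by construction. The exact sign-flip permutation test, here on the log2 ratios, again gave its smallest p, 0.25, for both. After Benjamini-Hochberg adjustment over 4 such tests it was 0.333. The size of the ratio depended on which reads were counted: without reads whose length differed from their span it was 1.36-fold, with reads of up to 100 nt only 4.95-fold, and without library 2 it was 2.42-fold. The share per 100 nt was 1.87% ± 0.10 for SNORD102 and 0.370% ± 0.13 for SNORA27 (SD, n = 3), which placed them at rank 18 and rank 76 of all 260 entries.

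Across the 3 libraries the members did not follow each other most closely. The measure of likeness was the Euclidean distance between log2 shares, each centred on its own mean over the 3 libraries, among 125 snoRNAs with at least 10 reads per library. The nearest to SNORD102 were SNORD91A (0.065), SNORD4B (0.082) and SNORD4A (0.085), against a median distance of 0.62. SNORD65 (0.20), SNORD16 (0.23) and SNORD7 (0.25) were nearest to SNORA27, against a median of 0.93. SNORD102 and SNORA27 were 0.78 apart on this log2 scale. These distances describe only 3 libraries, which differed in their number of reads and in their share of short reads.

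Other snoRNAs within genes of ribosomal proteins served as the setting for both members. They numbered 56 with the members included, 39 of box C/D and 17 of box H/ACA type in 28 host genes, and took 33.2% ± 2.3 of snoRNA reads (SD, n = 3). The median share was 0.580% for the 39 box C/D entries, against 0.332% for the class, and 0.0779% for the 17 box H/ACA entries, against 0.0349%. SNORD100 in RPS12 (3.14%), SNORD42B in RPL23A (2.73%), SNORD24 in RPL7A (2.50%) and SNORD58C in RPL17 (1.97%) led the other box C/D members. SNORA7A in RPL32 (0.453%), SNORA64 in RPS2 (0.263%), SNORA70 in RPL10 (0.186%) and SNORA66 in RPL5 (0.182%) led the other box H/ACA members, all 4 below SNORA27 by mean share. Against SNORA7A, however, SNORA27 was higher only in library 2, with 116 to 125, 34 to 14 and 102 to 118 reads.

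RPL21 was 1 of 3 ribosomal protein genes with reads from snoRNAs of both classes. In RPL5, SNORD21 exceeded SNORA66 by 2.92 and 4.64 times in libraries 1 and 2 but not in library 3 (0.983). In RPS12, SNORD100 and SNORD101 together exceeded SNORA33 by 40.4, 82.6 and 51.2 times, where SNORA33 had 17, 5 and 10 reads. The RPL21 ratio of box C/D to box H/ACA reads was thus near that of RPL5 in libraries 1 and 2, and below that of RPS12 in every library.

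Most SNORD102 reads were nearly whole. Reads spanning at least 90% of the RNA made up 86.3% of its reads in library 1, 47.2% in library 2 and 59.0% in library 3, a mean of 64.2% ± 20 (SD, n = 3), and the median read length was 71, 67 and 68 nt. Reads covering all 72 positions were rare, with 1, 4 and 2 reads. The read from position 2 to 72, lacking the first base, was the commonest, with 138, 53 and 78 reads or 39.2% of the 687. Other frequent reads ran from 3 to 69 (42, 4 and 21 reads), 2 to 71 (22, 6 and 15) and 2 to 69 (18, 6 and 16).

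The 5′ end of SNORD102 reads was the steadier one. Position 2 began 200, 105 and 162 reads, or 67.6% ± 2.4, and position 3 began 19.8% ± 0.97 (SD, n = 3). At the other end, position 72 closed 53.5%, 40.3% and 39.3% of reads and position 69 closed 23.6%, 8.18% and 16.4%. Position 65, inside the D box letters, closed 2, 19 and 22 reads, or 0.704%, 11.9% and 9.02%. The last of these was near absent in library 1 and present in libraries 2 and 3, which also had the lower shares of near full-length reads.

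SNORA27 reads were more often partial. Reads spanning at least 90% of the RNA made up 43.1%, 38.2% and 23.5% in libraries 1, 2 and 3, a mean of 35.0% ± 10 (SD, n = 3), and the median read length was 92, 72 and 81.5 nt. The share was below that of SNORD102 in 3 of 3 libraries, by a mean difference of -29.2 ± 18 percentage points, with exact sign-flip permutation p = 0.25 (0.333 adjusted over the 4 tests). The mean difference was -15.0 when at least 95% of the RNA had to be spanned, and -16.8 with each record counted once, where SNORA27 was lower in 2 of 3 libraries. The commonest read nevertheless covered the whole RNA from 1 to 126, with 27, 5 and 12 reads or 17.5% of 252. In both classes these shares lay below the middle: the median over other box C/D snoRNAs was 70.3% and over other box H/ACA snoRNAs 49.6%.

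Between 41 nt and 90% of the RNA, SNORA27 reads were mostly 5′ pieces. Of 121 such reads, 114 were centred in the 5′ part and 111 started at positions 1 to 3 (47 of 53, 3 of 6 and 61 of 62 reads in libraries 1, 2 and 3). The most frequent of them ran from 1 to 69, ending 5 nt past the H box match, with 3, 0 and 7 reads. Of the 119 SNORD102 reads of this intermediate kind, 107 were centred in the 5′ part. At the 3′ end, position 126 closed 42, 27 and 24 SNORA27 reads, or 36.2%, 79.4% and 23.5%, the highest share being that of library 2.

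**Figure D2:**
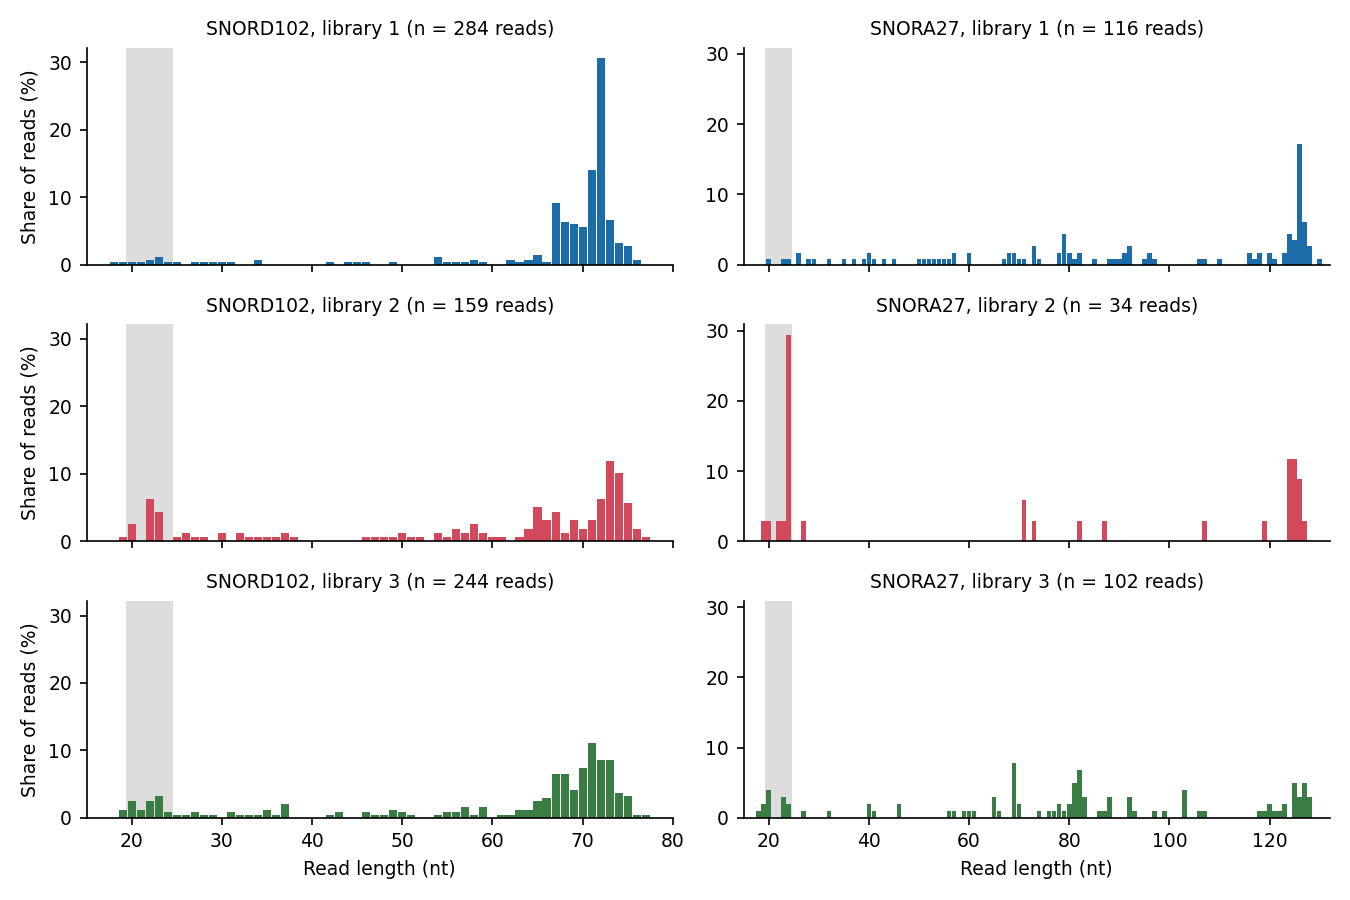
Read length (nt) against the share of each snoRNA's reads (%) in each library, with the range of 20 to 24 nt shaded grey. SNORD102 peaks near its full length of 72 nt in all 3 libraries, and SNORA27 spreads from 18 to 130 nt around and below its full length of 126 nt, with 10 of 34 reads at 24 nt in library 2.

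Reads of 20 to 24 nt were a small part of both snoRNAs in library 1 and a larger one in library 2. SNORD102 had 8, 21 and 25 of them in libraries 1, 2 and 3, or 2.82%, 13.2% and 10.2% of its reads, a mean of 8.76% ± 5.4 (SD, n = 3). SNORA27 had 3, 13 and 9, or 2.59%, 38.2% and 8.82%, a mean of 16.5% ± 19. The high mean of SNORA27 rested on library 2, where it had 34 reads in all. By mean share SNORD102 was 10th of 108 box C/D snoRNAs (median of the others 2.78%) and SNORA27 was 3rd of 15 box H/ACA snoRNAs (median of the others 3.08%).

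Between the members this share did not differ in a set direction. SNORA27 minus SNORD102 was -0.23, 25 and -1.42 percentage points in libraries 1, 2 and 3, a mean of 7.79 ± 15 (SD), positive in 1 of 3 libraries, with exact sign-flip permutation p = 1. Without library 2 the mean difference was -0.83.

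Reads of 20 to 24 nt were then compared with all other reads of each snoRNA by edgeR's quasi-likelihood test with library as a block. The reference was the same ratio in the typical snoRNA, as set by TMM factors. Of 125 snoRNAs with at least 10 reads in every library, 7 (5.60%) had more 20 to 24 nt reads and 6 had fewer at an adjusted p of 0.05. SNORA27 was among the 7, with a log2 ratio of 1.85 ± 0.54 (SE, edgeR adjusted p = 0.00927). Its plain ratio of such reads to other reads lay above that of all snoRNA reads pooled in 2 of 3 libraries. The call was lost without library 2 (log2 ratio 0.85, edgeR adjusted p = 0.812), without library 3 (1.96, 0.121), with no filter on low counts (1.42, 0.145) and with DESeq2 (1.84, 0.0585). SNORD102 had a log2 ratio of 1.22 ± 0.60 with an edgeR adjusted p of 0.210. Of the 15 box H/ACA snoRNAs tested, the others called were SNORA22 and SNORA75. Of the 36 snoRNAs within ribosomal protein genes, SNORA27 and SNORD14A were called with more and SNORD100 with fewer such reads, and the median log2 ratio of the 36 was -0.56 against -0.49 over all 125.

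Within SNORD102 the 20 to 24 nt reads came from both ends. In libraries 1, 2 and 3, the 5′ part held 8, 13 and 17 of them and the 3′ part 0, 8 and 8, so 38 against 16 in all. Of the 54 reads, 36 started at positions 1 to 3 and ended within the T run or 1 nt past it, so that they held the C box. A read of 20 to 24 nt with such a start must end near the run, so this end was largely set by the size window. Among reads of up to 40 nt, 69 started at positions 1 to 3, and 37 of them ended in the run or 1 nt past it. These 37 include the 36 reads of 20 to 24 nt. The read from 2 to 24 had 2, 6 and 7 reads, that from 2 to 23 had 2, 3 and 2, and that from 3 to 24 had 0, 3 and 3. On the other side, the read from 53 to 72 had 0, 2 and 4 reads and that from 51 to 72 had 0, 3 and 1, both holding the D box. The 5′ reads were seen in all 3 libraries and the 3′ reads in libraries 2 and 3, while library 1 had only 8 reads of this size. SNORD102 had 19 distinct pairs of ends among these reads.

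In SNORA27 the 20 to 24 nt reads came mostly from the 3′ end. The 5′ part held 2, 0 and 0 of them and the 3′ part 1, 13 and 9, so 2 against 23 in all. The read from 103 to 126 had 1, 10 and 2 reads, that from 107 to 126 had 0, 1 and 4, and that from 103 to 125 had 0, 1 and 2, each holding the ACA box. Libraries 2 and 3 differed in which of these led, the read from 103 to 126 in library 2 and that from 107 to 126 in library 3. The 2 reads of the 5′ part, 4 to 23 and 4 to 26, were single reads of library 1. SNORA27 had 7 distinct pairs of ends at this size.

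**Figure D3:**
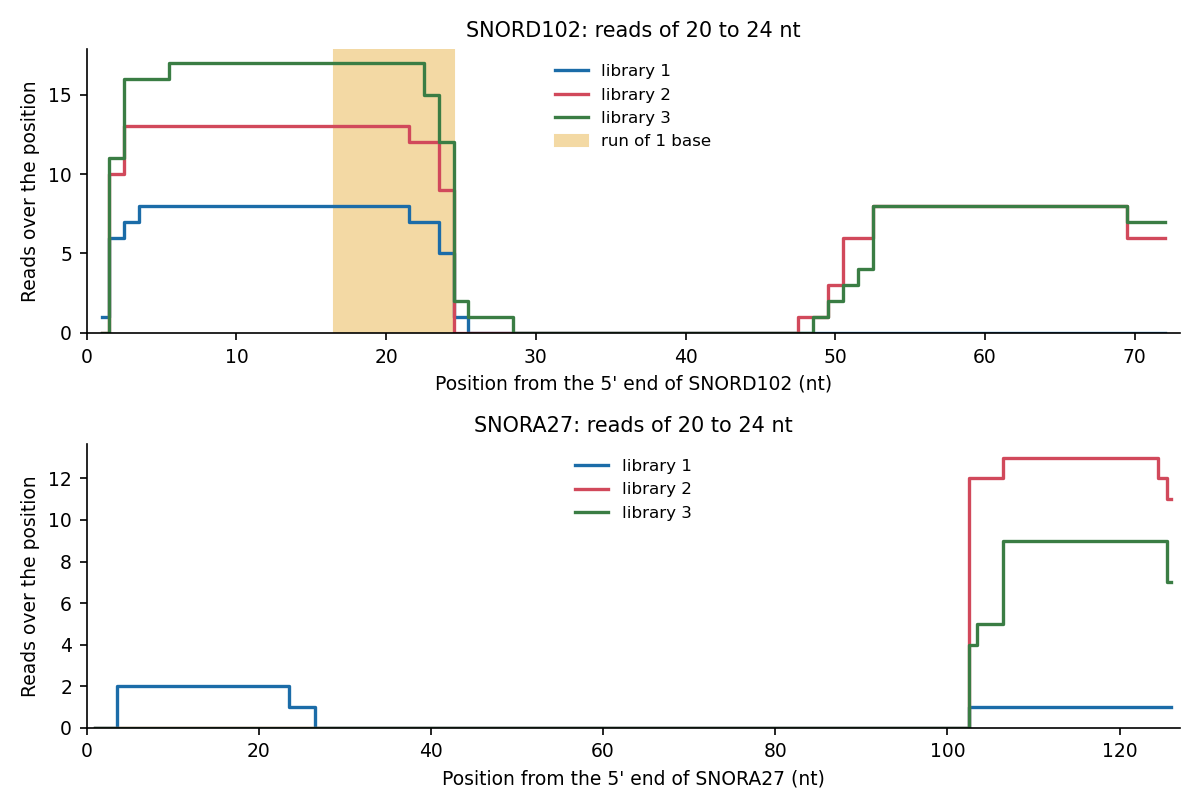
Number of 20 to 24 nt reads over each position (nt from the 5′ end) of SNORD102 and SNORA27, 1 line per library, with the run of 8 T in SNORD102 shaded. SNORD102 shows 5′ reads in every library, whose ends near the run are largely set by their start and the size window. It shows 3′ reads in libraries 2 and 3, and SNORA27 shows 3′ reads from position 103 or 107 to the end.

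A test over reads of any length placed reads in the 5′ or 3′ part by their midpoint and compared the parts with edgeR. Library was a block, with 1 library size for both parts. Reads centred on the middle entered neither part, which left out 52 of 687 SNORD102 reads and 46 of 252 SNORA27 reads. Of 108 snoRNAs with at least 10 placed reads per library, 72 (66.7%) had unequal read numbers by midpoint at an adjusted p of 0.05. Of these, 43 were toward 5′ and 29 toward 3′. In SNORD102 the 5′ part held 100, 86 and 129 reads and the 3′ part held 160, 63 and 97. The near whole read from 2 to 72 has its midpoint just past the middle, so its 138, 53 and 78 reads were most of that 3′ part. For SNORD102 the test thus largely scored small shifts in the ends of near whole reads. Its log2 ratio of 3′ to 5′ reads was -0.05 ± 0.30 (SE), edgeR adjusted p = 0.863, and library 1 leaned to 3′ while the others leaned to 5′. With a separate library size for each part it was 0.89 with an edgeR adjusted p of 0.0121, a call toward 3′.

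In SNORA27 the 5′ part held 70, 4 and 73 reads and the 3′ part held 17, 25 and 17. Its log2 ratio of 3′ to 5′ reads was -0.90 ± 0.94 (SE, edgeR adjusted p = 0.405), and library 2 went against the other two. Without library 2 the log2 ratio was -2.06 and the edgeR adjusted p 0.00116, a call toward 5′. Such calls were common in that setting: 99 of 131 snoRNAs were called, 62 toward 5′ and 37 toward 3′. Of 16 box H/ACA snoRNAs tested there, 10 were called toward 5′ and 1 toward 3′. With all 3 libraries, 31 snoRNAs within ribosomal protein genes were tested. Of these, 14 were called toward 5′ and 11 toward 3′, with a median log2 ratio of -1.48 against -0.75 over all 108. The shorter reads of library 2 moved with the SNORA27 value, and their part in it was not tested.

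Near full-length reads have their midpoint close to the middle, so the test was repeated on reads of up to 40 nt, an alternative chosen after seeing the data. In SNORD102 the 5′ part then held 18, 30 and 38 reads and the 3′ part held 0, 8 and 10, a log2 ratio of 3′ to 5′ reads of -2.45 ± 0.69 (SE) with an edgeR adjusted p of 0.00623. All 3 libraries had more 5′ reads, and 21 of 49 snoRNAs tested this way were called. In SNORA27 the 5′ part held 11, 0 and 3 reads and the 3′ part held 2, 15 and 13, a log2 ratio of 1.19 with an edgeR adjusted p of 0.329. Here library 1 leaned to 5′ and libraries 2 and 3 to 3′.

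The reads of SNORD102 were often longer than the stretch they were placed on. The length of a read differed from its span, last minus first position plus 1, in 73.2%, 75.5% and 66.4% of SNORD102 reads in libraries 1, 2 and 3, a mean of 71.7% ± 4.7 (SD, n = 3). The median over the other members of its class that reached 10 reads per library was 19.1%, and of the 108 SNORD45B alone was higher (72.6%), with no run of equal bases longer than 4. For SNORA27 the share was 36.2%, 20.6% and 52.9%, rank 7 of 15 box H/ACA snoRNAs.

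In SNORD102 the difference in length was most frequent in reads that passed through the run of 8 T. Reads longer than their span made up 68.0%, 71.1% and 55.7% of its reads. An excess of 1 nt was the commonest value in library 1 (40.8%), 2 nt in library 2 (27.0%) and no excess in library 3 (33.6%). Among reads that passed through the whole run, 75.6%, 87.6% and 74.5% differed in length from their span (485 of 623 reads). Among those ending or starting within the run 5 of 45 did, and among those outside it 0 of 19 did, which allows a share of up to 15.8% (3 counts of 19). In a read that ends or starts within the run, an extra or missing T can shift that end and leave length equal to span. That group is therefore a weak contrast, also in the split by read length below. These groups also differed in read length, with medians of 71, 22 and 21 nt. Among reads of up to 40 nt alone, a split added after seeing the data, 27 of 46 reads through the run differed, with a median length of 31.5 nt, against 0 of 40 ending or starting in it and 0 of 18 outside it. Among longer reads, 458 of 577 through the run and 5 of 5 ending or starting in it differed, and 1 read outside it did not. Where the other members of the class had a sequence, the 5 with a run of at least 6 equal bases had a median of 37.1%, the 12 with a run of 5 had 24.5% and the 67 with shorter runs 18.1%. Whether the extra bases lay in the RNA, in the read or in its placement was not tested.

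**Figure D4:**
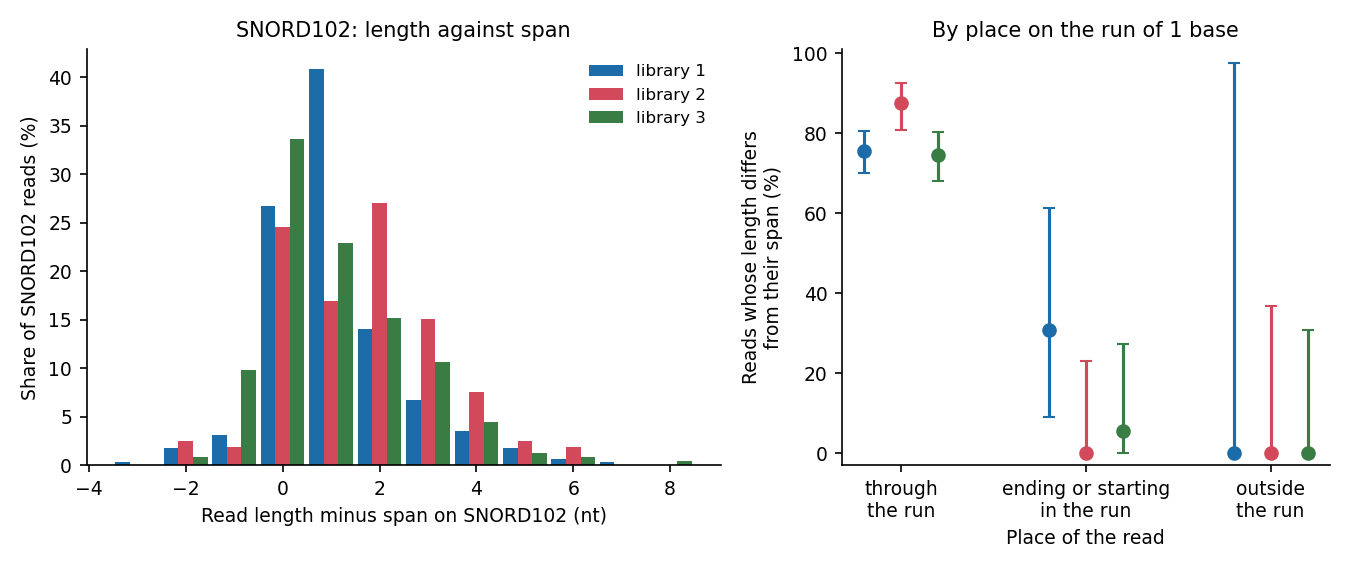
Left, read length minus span (nt) of SNORD102 reads as a share of its reads (%) in each library. Right, share of reads whose length differs from their span (%), with exact 95% intervals, by place of the read on the run of 8 T. The 3 libraries lie between 74.5% and 87.6% for reads through the run. Values are at or below 30.8% for reads ending or starting in it, and at 0% outside it. An end within the run can shift with an extra or missing T, so the middle group is a weak contrast.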

How the data were processed

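Small RNA reads on snoRNAs were analysed in 3 libraries of HEK293 cells. Per the file headers, the authors deposited raw counts, each record giving a snoRNA entry, read length, first position and last position. Records with the same length and positions recur (48 of the 130 SNORD102 records in library 2 repeat an earlier one); they were taken as distinct sequences and summed, which the sources used here do not state. The sums equal the counts of the second table for both members in library 1. Their genome build was GRCh38.p10 according to the submitters' processing notes. Not given in the sources used here are the aligner, the trimming, the filters and the handling of reads that fit several entries. A second deposited table of counts has 2 per-sample columns that fit no sample title, and these were left out.

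Entries were named from RefSeq symbols (250 of 260 matched), and 227 had a GENCODE 29 gene, from which positions and sequences came. Shares are counts over the library total, averaged with equal weight. Read position and read size were compared by the quasi-likelihood test of edgeR 4.0.16, after tests on simulated data, with DESeq2 1.42.0 as an alternative. Settings were a block for each library, at least 10 counts per library, Benjamini-Hochberg threshold 0.05, and TMM factors in the size test. In simulated data the size test recovered 40.5% of 4-fold and 81.5% of 16-fold changes, and 5.81% and 8.94% of its calls were false. The position test recovered 85% and 99.5%, with 2.30% and 4.78% of calls false. The simulations used a fixed dispersion, a common ratio of the 2 sides for all unchanged snoRNAs, and few changed ones. That dispersion was not fitted to these libraries, so the rates may not hold for them. Each read enters at most 1 side of a test, reads centred on the middle are left out of the position test, and the block pairs the 2 sides of a library. The work used R 4.3.3 and Python 3.11.15 with SciPy 1.17.1, NumPy 2.4.6, pandas 2.3.3 and matplotlib 3.10.9.

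The members, lists and tests were chosen with earlier results of these data known. Named snoRNAs were the members, up to 2 of the same class on each side by mean share, the 3 nearest by likeness, up to 4 others of each class within ribosomal protein genes, and members of counts of 5 or fewer, the last chosen after their values were seen. For each member the 5 commonest reads of any length and of 20 to 24 nt were considered.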

Additional observations from a re-analysis of the deposited data

How the results depend on the processing

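Of 124 values recomputed under alternatives, 97 kept their direction and side of the threshold or stayed within the spread, 10 moved, 10 reversed, 3 passed the threshold in the same direction and 4 lost it. One of those that reversed, the SNORD102 position with a library size for each part, also passed it. The cause was not tested in any of these. For the 20 to 24 nt share, SNORA27 minus SNORD102 was -0.44 with each distinct record counted once and ranged from -0.83 to 12.4 with 1 library left out. For position, the SNORD102 log2 ratio was 0.89 with a library size for each part (edgeR adjusted p = 0.0121), 0.39 with TMM factors, 0.60 with DESeq2 and its size factors, -2.28 with read ends of reads spanning at most 50% (edgeR adjusted p = 0.0143), -2.45 with reads of up to 40 nt, and -0.43 to 0.14 with 1 library left out. The SNORA27 log2 ratio was 0.057, 0.076 and 1.19 with a library size for each part, with read ends and with reads of up to 40 nt, and -2.06 to -0.047 with 1 library left out. Position calls numbered 17 of 39 with read ends and 21 of 49 with reads of up to 40 nt, and with a library size for each part the 76 calls were 44 toward 3′ and 32 toward 5′, against 29 and 43 of 72. Size calls numbered 4 to 9 with 1 library left out, against 13, and the SNORA27 size ratio was 1.42 with no filter, 1.84 with DESeq2 and 0.85 to 2.61 with 1 library left out. Without the replicate block, 73 position calls and 13 size calls were made, and the members' log2 ratios were -0.02 and -1.11 for position and 1.27 and 1.76 for size (SNORD102, then SNORA27), which changed no call of either. SNORA27 had 25 reads of 20 to 24 nt and 34 reads in library 2, so its shares there are imprecise, and a snoRNA with 0 reads may hold up to 0.0251% of library 2 (3 counts).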
